A study of Homo sapiens with 18 samples.

Results

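Genes of G2 phase and mitosis were followed by bulk RNA-Seq in 3 cell lines of human acute myeloid leukemia (AML) exposed to a Menin inhibitor, a BET inhibitor or both. The set holds 36 listed genes, from the transcription factors that switch the program on to the proteins that cut the daughter cells apart, and each of the 36 was found once by symbol among the 58037 Ensembl gene IDs of the count table. The MLL gene is fused to AF9 in MOLM13 and rearranged in MV4-11, whereas OCI-AML3 has germline MLL and mutant NPM1. The 18 libraries form 8 groups: MOLM13 cells with 500 nM VTP50469 plus 500 nM OTX015, with 500 nM OTX015, with 500 nM VTP50469, or untreated as control (2 libraries each), MV4-11 cells with 1000 nM VTP50469 or as control (2 each), and OCI-AML3 cells with 500 nM VTP50469 or as control (3 each). Treatment lasted 16 h. VTP50469, which the study calls SNDX-50469, keeps Menin from binding MLL, and OTX015 displaces BET proteins from acetylated chromatin. Each line is a single established culture, the dose in MV4-11 differed from that in the other lines, OTX015 was given to MOLM13 alone, and the labels call the controls only "Control", with no vehicle named.

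A cell enters mitosis when CDK1, bound to cyclin A or B and freed of inhibitory phosphates by CDC25 phosphatases, phosphorylates its substrates. The spindle then attaches to kinetochores under the watch of the spindle assembly checkpoint, until the anaphase-promoting complex (APC/C), a ubiquitin ligase helped by CDC20 and the ubiquitin-conjugating enzyme UBE2C, destroys cyclin B and securin. The genes of this program are transcribed late in the cycle by FOXM1, MYBL2 and the MuvB complex, so that their messengers usually follow the share of cells in G2 and mitosis. In bulk RNA a lower share of such cells and less messenger per cell cannot be told apart.

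Many of these promoters hold a cell cycle genes homology region (CHR), through which MuvB binds, and CCAAT boxes, bound by NF-Y. RefSeq windows on GRCh38.p14, from 250 bases before to 50 bases after the start of transcription, were at hand for 29 of the 36 members, and FOXM1, AURKA, BIRC5, BUB3, TTK, UBE2C and TPX2 had no entry. On either strand, TTTGAA occurred in 19 of the 29 windows (65.5%), against 15.4% of the 27305 windows of all genes, and its variant TTCGAA in 2 of 29, against 1.45%. CCAAT occurred in 20 of 29 (69.0%), against 35.7% of all windows. Shown here are 180 bases of 5 windows, 150 before the start and 30 from it on, 5′ to 3′ on the strand of the gene, for members that rose most (MKI67, ASPM, KIF11) or fell most (PLK1, MAD2L1) in MOLM13 under OTX015 or the combination. Capitals mark TTTGAA or CCAAT, or their reverse complements TTCAAA and ATTGG.
MKI67 (chr10:128126394-128126573, minus strand): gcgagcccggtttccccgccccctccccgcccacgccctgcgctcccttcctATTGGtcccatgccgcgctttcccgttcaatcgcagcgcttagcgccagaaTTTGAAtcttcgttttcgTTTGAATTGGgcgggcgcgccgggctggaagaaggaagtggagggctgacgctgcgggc
ASPM (chr1:197146640-197146819, minus strand): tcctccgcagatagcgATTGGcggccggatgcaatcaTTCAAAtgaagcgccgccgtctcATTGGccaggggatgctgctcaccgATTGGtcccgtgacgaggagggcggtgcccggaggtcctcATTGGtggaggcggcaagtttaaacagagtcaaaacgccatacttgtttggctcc
KIF11 (chr10:92592980-92593159, plus strand): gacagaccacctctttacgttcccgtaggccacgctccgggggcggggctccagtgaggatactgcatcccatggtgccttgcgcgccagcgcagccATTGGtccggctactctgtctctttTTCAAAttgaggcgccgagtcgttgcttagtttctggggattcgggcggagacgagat
PLK1 (chr16:23678739-23678918, plus strand): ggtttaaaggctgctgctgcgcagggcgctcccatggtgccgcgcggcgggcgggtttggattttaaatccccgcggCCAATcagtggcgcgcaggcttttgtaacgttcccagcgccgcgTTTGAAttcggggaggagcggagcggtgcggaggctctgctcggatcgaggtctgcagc
MAD2L1 (chr4:120066819-120066998, minus strand): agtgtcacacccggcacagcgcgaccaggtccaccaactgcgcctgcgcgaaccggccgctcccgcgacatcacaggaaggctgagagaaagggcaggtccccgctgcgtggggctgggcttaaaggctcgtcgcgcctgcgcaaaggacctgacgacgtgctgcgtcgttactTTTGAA
TTTGAA thus stands in promoters of members that moved in opposite directions. In MKI67 the second TTTGAA shares its last base with an ATTGG. A match describes the letters only and is no evidence of a bound factor.

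The libraries held 19320216 to 23684811 counts in MOLM13, 20730486 to 30090830 in MV4-11 and 49881047 to 59711884 in OCI-AML3. No member had fewer than 231 counts in any library, so all 36 passed the filter on low counts in every fit. Taken as sums, marker genes fitted the labelled cell type: 7 myeloid markers summed to 648 to 3177 CPM (counts scaled to the library total) over the 18 libraries. By contrast, 5 lymphoid markers summed to at most 9.84 CPM, 5 erythroid and megakaryocyte markers to at most 2.26 CPM and 5 epithelial and stromal markers to at most 23.2 CPM. Single myeloid markers could be low, as MPO in OCI-AML3 (2.51 to 3.28 CPM) and ANPEP in MOLM13 (1.04 to 2.10 CPM). The lymphoid marker CD3D reached 6.20 CPM in MOLM13 and the epithelial marker KRT8 14.0 CPM in MV4-11. The study calls the MOLM13 and OCI-AML3 samples biologic replicates, and for MV4-11, where nothing says so, p-values rest on a spread between libraries that may be technical only. That spread was wider in MV4-11, with a biological coefficient of variation of 13.2%, against 3.06% in MOLM13 and 3.16% in OCI-AML3. Control replicate 1 of MV4-11 stood apart in its mitochondrial share of counts, at 10.3%. That share was 6.23% and 6.68% with VTP50469 and 5.60% in the other control.

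Untreated cells of the 3 lines differed in their level of the program before any agent was added. On CPM scaled by TMM over all 18 libraries, the control level was lowest in MV4-11 for 33 of the 36 members, and for 31 of these no MV4-11 library reached the next line. It was highest in OCI-AML3 for 23 members, in MOLM13 for 12 and in MV4-11 for 1. CENPE, the kinesin that carries chromosomes to the spindle equator, had 179, 216 and 228 CPM in OCI-AML3 controls, against 38.7 and 44.8 CPM in MV4-11 and 42.7 and 44.8 CPM in MOLM13, the last 2 lines overlapping. MYBL2, a transcription factor that works with MuvB, had its highest level in MOLM13, at 504 and 527 CPM, with 271 to 287 CPM in OCI-AML3 and 208 and 231 CPM in MV4-11. The kinase PLK1 followed the same order, at 228 and 237 CPM in MOLM13, 111 to 114 CPM in OCI-AML3 and 73.3 and 84.2 CPM in MV4-11. BUB3, a checkpoint protein that also has roles outside mitosis, was the 1 member highest in MV4-11, at 221 and 223 CPM, with 196 to 199 CPM in OCI-AML3 and 191 and 193 CPM in MOLM13. These levels are a description without a test. How often other genes order or separate the lines in this way was not counted, so the pattern cannot be called particular to the members. MV4-11 was grown in IMDM medium and the other lines in RPMI, and OCI-AML3 was sequenced deepest.

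**Figure D1:**
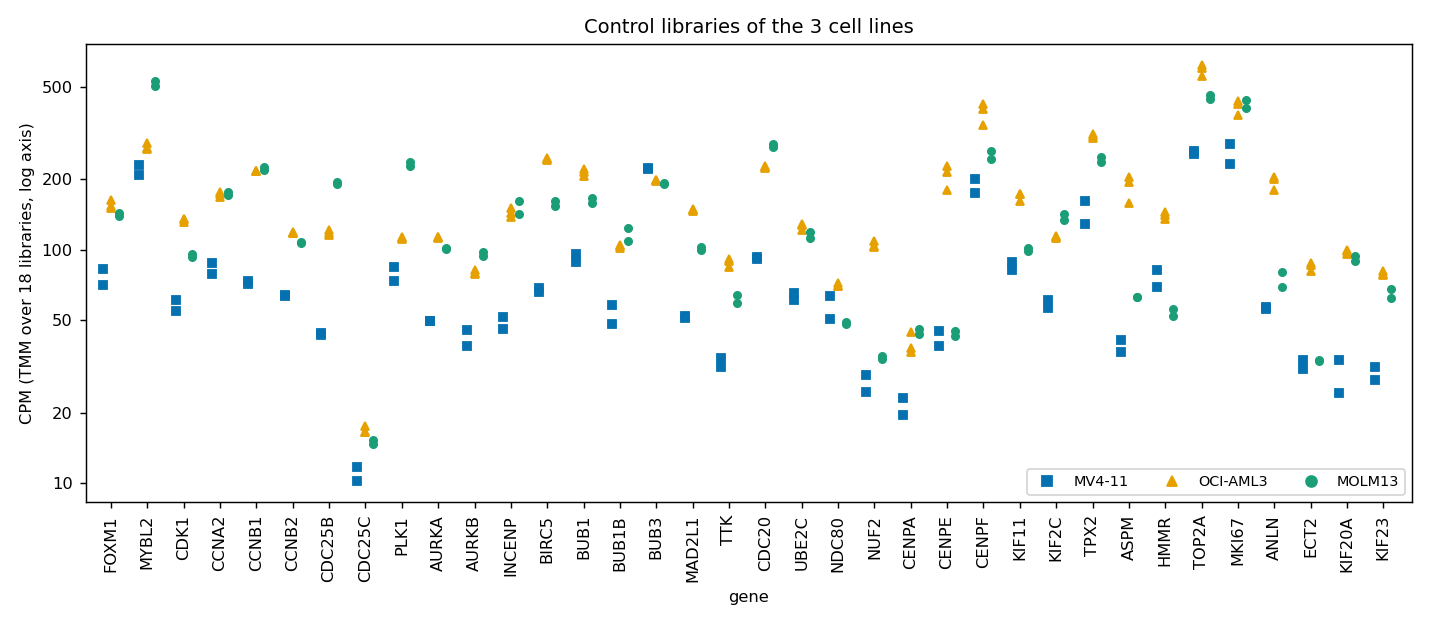
Level of each member in the control libraries of MV4-11 (squares), OCI-AML3 (triangles) and MOLM13 (circles), as CPM scaled by TMM over 18 libraries on a log axis, 1 symbol per library. MV4-11 lies lowest for 33 of 36 members, and MYBL2, CDC25B and PLK1 are highest in MOLM13.

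With VTP50469 and OTX015 together, members moved in both directions in MOLM13 cells. From here on CPM are scaled by TMM within each line, so control values differ from the levels given above. Against control, 10 of the 36 members rose and 9 fell in edgeR's quasi-likelihood test, where a gene is called at an adjusted p (Benjamini-Hochberg, over all tested genes) under 0.05 with a log2 fold change of at least 0.32 in size, called the fold limit here. The background was broad, since 31.2% of the 14360 tested genes rose and 30.9% fell, so the members' shares of 27.8% and 25.0% lay just below it. Their median log2 fold change was -0.04, against 0.02 over all tested genes. By role, both mitotic entry kinases, 3 of 5 checkpoint genes and CENPA of the kinetochore and centromere genes fell. By contrast, 1 checkpoint gene, 3 of 5 kinetochore and centromere genes and both genes of chromosome structure and surface rose. These groups of 2 to 5 genes were not tested as groups.

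UBE2C, which starts the ubiquitin chains by which APC/C marks its substrates, fell furthest. It had 42.3 and 42.3 CPM under the combination, against 105 and 111 CPM in control, a log2 fold change of -1.36 ± 0.06 (SE, n = 2 per group, edgeR adjusted p = 1.02e-31), or 0.39 of the control level. PLK1, which drives mitotic entry and centrosome maturation, had 129 and 129 CPM, against 214 and 221 CPM in control (-0.76 ± 0.04, edgeR adjusted p = 1.89e-24). In neither gene did the groups overlap. MAD2L1, the checkpoint protein that holds back CDC20, had 53.3 and 61.2 CPM, against 96.5 and 93.4 CPM in control (-0.73 ± 0.06). AURKA, the kinase that activates PLK1 at the centrosome, had 61.8 and 65.5 CPM, against 95.5 and 94.4 CPM (-0.58 ± 0.05). The cyclin B1 gene CCNB1 had 152 and 155 CPM, against 207 and 212 CPM (-0.45 ± 0.04). All of them were lower in both treated libraries than in either control. The other members that fell were BIRC5 (survivin, -0.44 ± 0.05), BUB3 (-0.43 ± 0.04), the checkpoint kinase-like BUB1B (-0.37 ± 0.05) and CENPA, the histone H3 variant of centromeres (-0.33 ± 0.07).

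MKI67, whose product coats condensed chromosomes and serves as the common marker of proliferation, rose most. It had 929 and 871 CPM under the combination, against 383 and 408 CPM in control, a 2.28-fold rise (log2 fold change 1.19 ± 0.04, edgeR adjusted p = 3.31e-36). KIF11, the motor that pushes spindle poles apart, had 166 and 174 CPM, against 92.5 and 94.8 CPM (0.86 ± 0.05). ANLN, the scaffold of the cleavage furrow, had 118 and 118 CPM, against 65.1 and 75.0 CPM (0.75 ± 0.06). These genes were separated from control in both libraries. ASPM, a spindle pole protein, had 84.5 and 103 CPM, against 58.8 and 58.5 CPM (0.68 ± 0.06), and CDC25C, a phosphatase that frees CDK1, had 21.8 and 22.5 CPM, against 14.3 and 13.7 CPM (0.67 ± 0.09). CENPE (0.56 ± 0.07), the kinetochore subunit NDC80 (0.48 ± 0.06), CENPF (0.41 ± 0.04), TOP2A (0.37 ± 0.04), the topoisomerase that untangles sister chromatids, and TTK (0.35 ± 0.06), the kinase at the head of the checkpoint, also rose. A protein known for 1 step could lie on either side, as with the checkpoint genes TTK and MAD2L1.

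The remaining 17 members were not called. The drivers of the program were among them: FOXM1 had 133 and 127 CPM under the combination, against 131 and 134 CPM in control (-0.03 ± 0.05, edgeR adjusted p = 0.55), and MYBL2 had 411 and 394 CPM, against 496 and 471 CPM (-0.26 ± 0.04, short of the fold limit). CDK1 itself stood at 81.7 and 88.6 CPM, against 87.2 and 89.1 CPM (-0.05 ± 0.06). AURKB, the kinase of the chromosomal passenger complex, was at -0.04 ± 0.05, whereas its partner INCENP was at 0.29 ± 0.05. Of the 17 members not called, 6 lay below both controls in both treated libraries and 5 above both. Separated libraries were thus not particular to called members, and their share over all tested genes was not counted in any comparison. Statements that groups did not overlap, here and below, therefore describe the libraries and lend a call no support. Among the genes called under the combination, TTK, BUB1B, CENPA and TOP2A lay near the fold limit: TTK was lost without control replicate 1, BUB1B and CENPA without control replicate 2, CENPA without combination replicate 1, and TTK and TOP2A without combination replicate 2. With 1 library left out, 8 to 11 members were higher and 7 to 10 lower. The CHR letters in either spelling stood in 7 of the 9 windows of members that rose, in 4 of the 5 of members that fell and in 9 of the 15 of members not called.

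**Figure D2:**
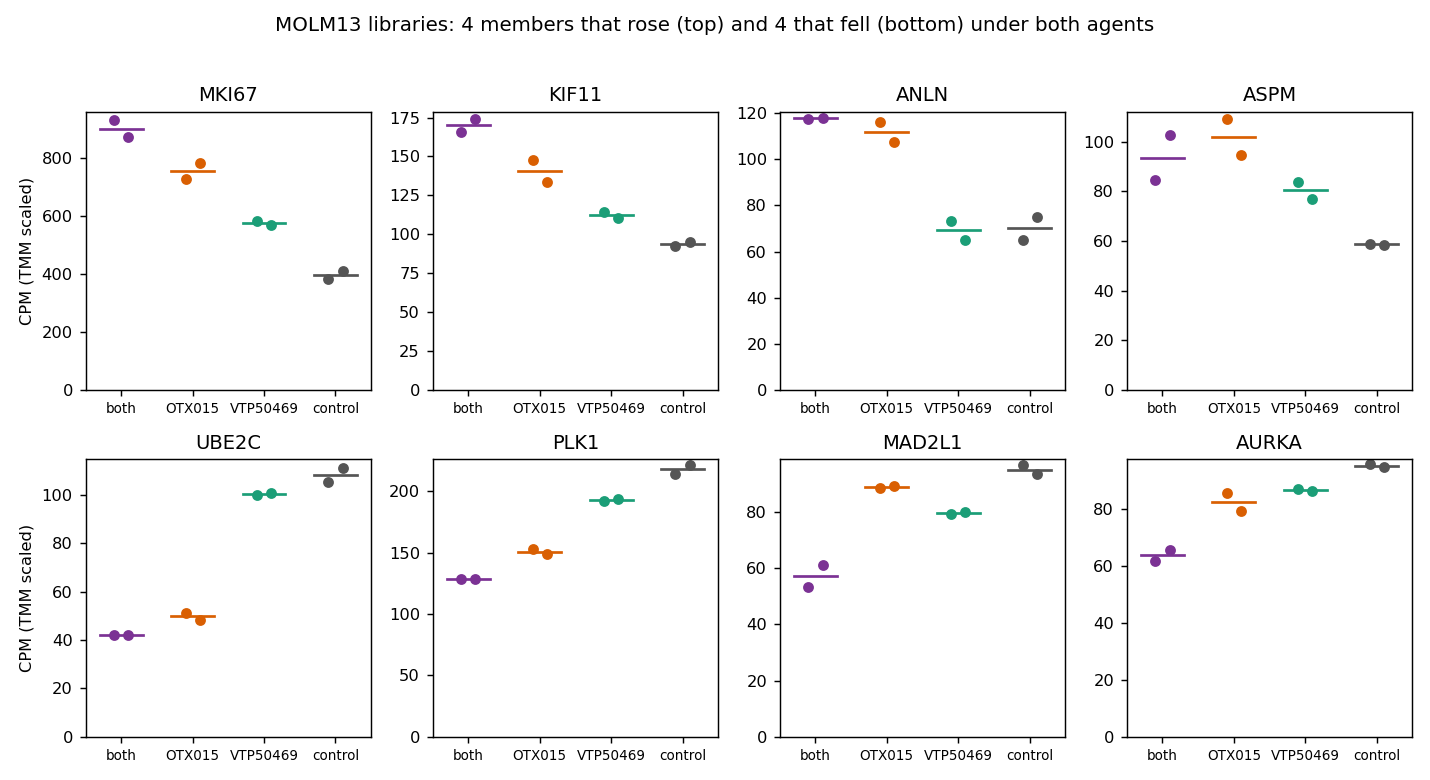
CPM (TMM scaled within MOLM13) of 8 members in each library under both agents, OTX015, VTP50469 and control, with points for the 2 libraries and a bar for their mean. MKI67 is at 929 and 871 CPM with both agents, 728 and 782 CPM with OTX015, 583 and 567 CPM with VTP50469 and 383 and 408 CPM in control, while UBE2C is near 42.3 CPM with both agents and at 105 and 111 CPM in control.

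OTX015 alone moved fewer members than the combination. Of the 36, 7 rose and 2 fell, where 23.5% of all tested genes rose and 24.7% fell, and the median was 0.04, against 0.01 over all genes. MKI67 had 728 and 782 CPM under OTX015, against 383 and 408 CPM in control (0.93 ± 0.04, edgeR adjusted p = 3.8e-30). ASPM had 109 and 94.6 CPM, against 58.8 and 58.5 CPM (0.80 ± 0.06), and ANLN 116 and 107 CPM, against 65.1 and 75.0 CPM (0.67 ± 0.06). KIF11 had 147 and 133 CPM, against 92.5 and 94.8 CPM (0.58 ± 0.05). These 4 genes were higher in both OTX015 libraries than in either control. Of the 27 members not called, 11 also lay above both controls and 10 below both. CENPE had 62.9 and 50.7 CPM, against 42.2 and 39.9 CPM (0.47 ± 0.07), and CENPF (0.41 ± 0.04) and NDC80 (0.37 ± 0.06) rose too. On the other side, UBE2C had 51.3 and 48.4 CPM, against 105 and 111 CPM (-1.12 ± 0.05, edgeR adjusted p = 1.75e-27), and PLK1 153 and 149 CPM, against 214 and 221 CPM (-0.53 ± 0.04). FOXM1 (-0.08 ± 0.05), MYBL2 (-0.24 ± 0.04), CCNB1 (-0.09 ± 0.04) and CDK1 (0.14 ± 0.05) were not called. Without OTX015 replicate 1 CENPE and NDC80 lost their calls, CENPE standing at 0.31.

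VTP50469 alone raised 4 members of MOLM13 and lowered 0, where 8.06% of all tested genes rose and 5.24% fell. The 4 that rose encode proteins of the mitotic chromosome and spindle, as do members that were not called, among them CENPE and KIF11. MKI67 had 583 and 567 CPM, against 383 and 408 CPM in control (0.54 ± 0.04, edgeR adjusted p = 1.73e-17), and CENPF, a kinetochore and nuclear matrix protein that peaks in G2, had 348 and 338 CPM, against 230 and 248 CPM (0.52 ± 0.04). ASPM had 83.8 and 77.0 CPM, against 58.8 and 58.5 CPM (0.46 ± 0.06), and TOP2A 555 and 530 CPM, against 415 and 432 CPM (0.36 ± 0.04). In each of the 4 the treated libraries lay above both controls. The same held for 10 of the 32 members not called, and 12 of the 32 lay below both controls. The other 32 spanned -0.26 (MAD2L1) to 0.26 (KIF11 and CENPE). In edgeR 10 members were lower at an unadjusted p below 0.05, none of them past the fold limit, and DESeq2 also called 0 lower. FOXM1 (-0.01 ± 0.04), MYBL2 (-0.17 ± 0.04), CCNB1 (-0.13 ± 0.04), CDK1 (-0.23 ± 0.06) and UBE2C (-0.11 ± 0.05) were not called. TOP2A lost its call without VTP50469 replicate 1 (0.32), and ASPM with all 18 libraries in 1 fit (adjusted p = 0.153). Over all genes the higher share of calls was 60.6%, and 74.4% without scaling factors.

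The members together held 0.564% and 0.581% of all counts under the combination, 0.554% and 0.547% under OTX015, 0.545% and 0.534% under VTP50469, and 0.484% and 0.495% in control. Of these, MKI67, TOP2A and CENPF, singled out after their values were seen, held 0.181% and 0.184% under the combination, against 0.0996% and 0.105% in control. The other 33 members held 0.382% and 0.397% under the combination, against 0.384% and 0.390% in control, ranges that overlap. MKI67 alone made up 16.9% and 15.6% of the members' counts under the combination, against 7.66% and 7.96% in control.

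**Figure D3:**
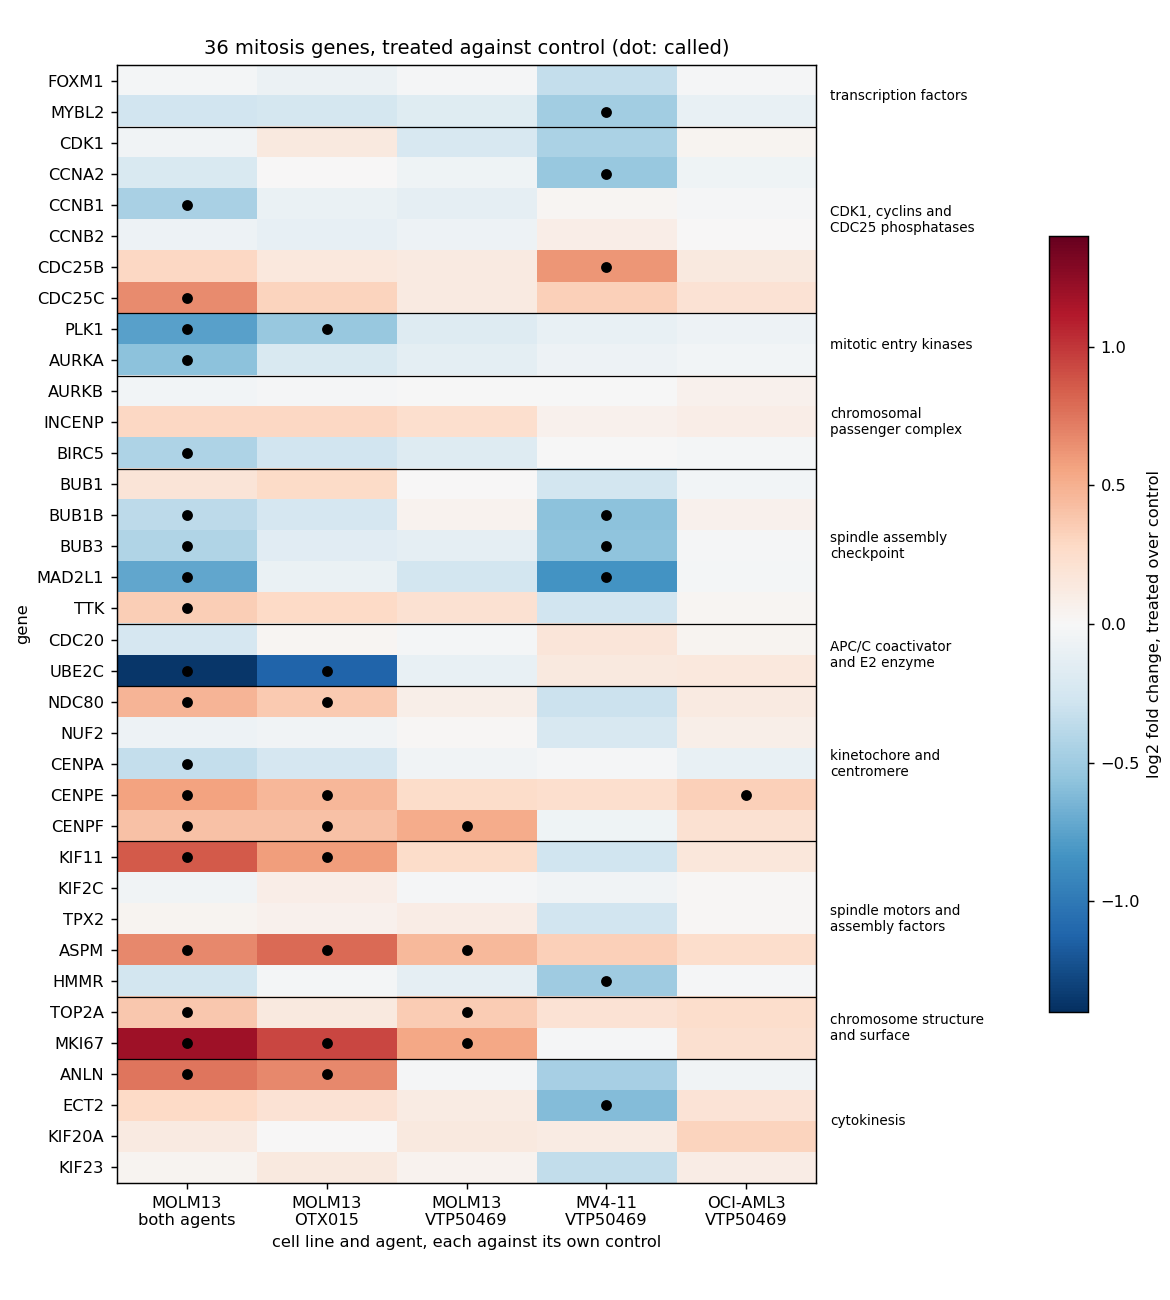
Log2 fold change of each of the 36 members (rows, grouped by role) in 5 comparisons of treated cells with their own control (columns), from blue (lower) to red (higher), with a black dot where the member was called. The 3 MOLM13 columns show MKI67 rising throughout and UBE2C falling with OTX015 and with both agents, and in the MV4-11 column MAD2L1 is lowest at -0.84.

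Setting the combination against each single agent separates what each added. Against VTP50469 alone, 5 members were higher and 5 lower, where 27.9% and 29% of all tested genes were. ANLN had 118 and 118 CPM under the combination, against 73.3 and 65.2 CPM under VTP50469 (0.77 ± 0.06), and MKI67 929 and 871 CPM, against 583 and 567 CPM (0.65 ± 0.04). KIF11 (0.60 ± 0.05), with 166 and 174 CPM against 114 and 110 CPM, CDC25C (0.54 ± 0.09), with 21.8 and 22.5 CPM against 16.1 and 14.5 CPM, and NDC80 (0.40 ± 0.06), with 64.1 and 63.3 CPM against 47.6 and 49.0 CPM, completed those that were higher. The libraries of the 2 groups did not overlap in any of these genes. Among the members not called, 6 also lay above VTP50469 alone and 12 below it without overlap. UBE2C, at 42.3 and 42.3 CPM against 100.1 and 101 CPM, was lower by far the most (-1.25 ± 0.06, edgeR adjusted p = 1.14e-29). PLK1, at 129 and 129 CPM against 192 and 194 CPM (-0.58 ± 0.04), and MAD2L1, at 53.3 and 61.2 CPM against 79.2 and 79.9 CPM (-0.47 ± 0.06), were lower as well. So were AURKA, at 61.8 and 65.5 CPM against 87.0 and 86.3 CPM (-0.44 ± 0.05), and BUB1B, at 85.8 and 83.2 CPM against 114 and 112 CPM (-0.42 ± 0.05). FOXM1 (-0.02 ± 0.05), MYBL2 (-0.09 ± 0.04), CCNB1 (-0.32 ± 0.04) and CDK1 (0.18 ± 0.06) were not called. All 10 calls held under each of the 12 alternatives.

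Against OTX015 alone the combination changed 4 members, 1 higher and 3 lower, where 18.4% and 16.5% of all tested genes were. MAD2L1 had 53.3 and 61.2 CPM under the combination, against 88.4 and 89.1 CPM under OTX015 (-0.63 ± 0.06, edgeR adjusted p = 2.26e-15). AURKA had 61.8 and 65.5 CPM, against 85.4 and 79.0 CPM (-0.37 ± 0.05), and CCNB1 152 and 155 CPM, against 206 and 188 CPM (-0.36 ± 0.04). CDC25C was the 1 member higher, at 21.8 and 22.5 CPM against 17.6 and 17.2 CPM (0.35 ± 0.09). UBE2C (-0.24 ± 0.06), MKI67 (0.25 ± 0.04), FOXM1 (0.05 ± 0.05), MYBL2 (-0.02 ± 0.04) and CDK1 (-0.19 ± 0.06) did not pass the fold limit. MAD2L1 alone stayed lower without OTX015 replicate 1, where AURKA stood at -0.31 and CCNB1 at -0.30, and CDC25C (0.32) lost its call without combination replicate 2.

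The interaction tests whether the effect of both agents differed from the sum of their single effects on the log2 scale. It was lower for 3 members and higher for 0, where 12.7% and 11.5% of all tested genes passed in each of these directions, and DESeq2 also called 0 higher while 1 member was higher at an unadjusted p below 0.05 in edgeR. ASPM (-0.58 ± 0.09, edgeR adjusted p = 1.7e-07) and CENPF (-0.51 ± 0.06, edgeR adjusted p = 4.09e-11) rose with each agent, and with both agents CENPF stood at 314 and 324 CPM, in the range of OTX015 alone (316 and 318 CPM). MAD2L1 (-0.38 ± 0.08, edgeR adjusted p = 6.62e-05) was called with neither single agent and fell with both. MKI67 (-0.29 ± 0.06), CCNB1 (-0.23 ± 0.06), UBE2C (-0.13 ± 0.08), MYBL2 (0.15 ± 0.06), FOXM1 (0.07 ± 0.06) and CDK1 (0.04 ± 0.08) lay below the fold limit. MAD2L1 lost its call without combination replicate 1 (-0.28), and 5 members were lower without control replicate 2, INCENP and MKI67 being added.

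Members that rose in MOLM13 tended to be long genes. Those that fell under the combination ran from 1286 bases (UBE2C) to 8175 bases (BUB3). Exon length here is the union of annotated exons, which ran from 1286 bases in UBE2C to 12845 bases in MKI67. The 4 members of 9000 bases or more (CENPE, ASPM, CENPF and MKI67) all rose under the combination, with a median log2 fold change of 0.62, and all rose under OTX015 (0.63). Of all tested genes of that length, 45.4% rose and 21.2% fell under the combination. Under OTX015 38.6% of them rose and 15.4% fell, with a median of 0.22. Spearman's rho of log2 fold change with exon length over the 36 members was 0.51 under the combination, 0.53 under OTX015 and 0.47 under VTP50469, values that share the control libraries. Over all 14222 tested genes with a length it was 0.17, 0.19 and 0.18, and genes of 9000 bases or more had a median of 0.27 under the combination, against -0.27 in genes under 1500 bases. Within groups of MOLM13 the same rho between the 2 replicates ran from 0.01 to 0.16 in size over all genes and from 0.11 to 0.24 over the members. It was larger between some replicates of the other lines, reaching 0.73 over the members between the treated libraries of MV4-11. These correlations are across genes, which are not independent replicates.

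An alternative chosen after seeing the data entered each library's trend with exon length as an offset. Under the combination 10 members were then higher and 7 lower. MKI67 stood at 0.93, KIF11 at 0.85, CDC25C at 0.77, UBE2C at -1.14, MAD2L1 at -0.74 and PLK1 at -0.74, whereas TOP2A, CENPF, CENPA and CCNB1 lost their calls and CDC25B and INCENP gained one. Under OTX015 CENPE (0.31) and CENPF lost theirs, and CDC25C gained one. Of the members that fell under the combination, BUB3 had 8175 bases and MAD2L1 5517 bases. The part of length in the remaining calls was not tested further.

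**Figure D4:**
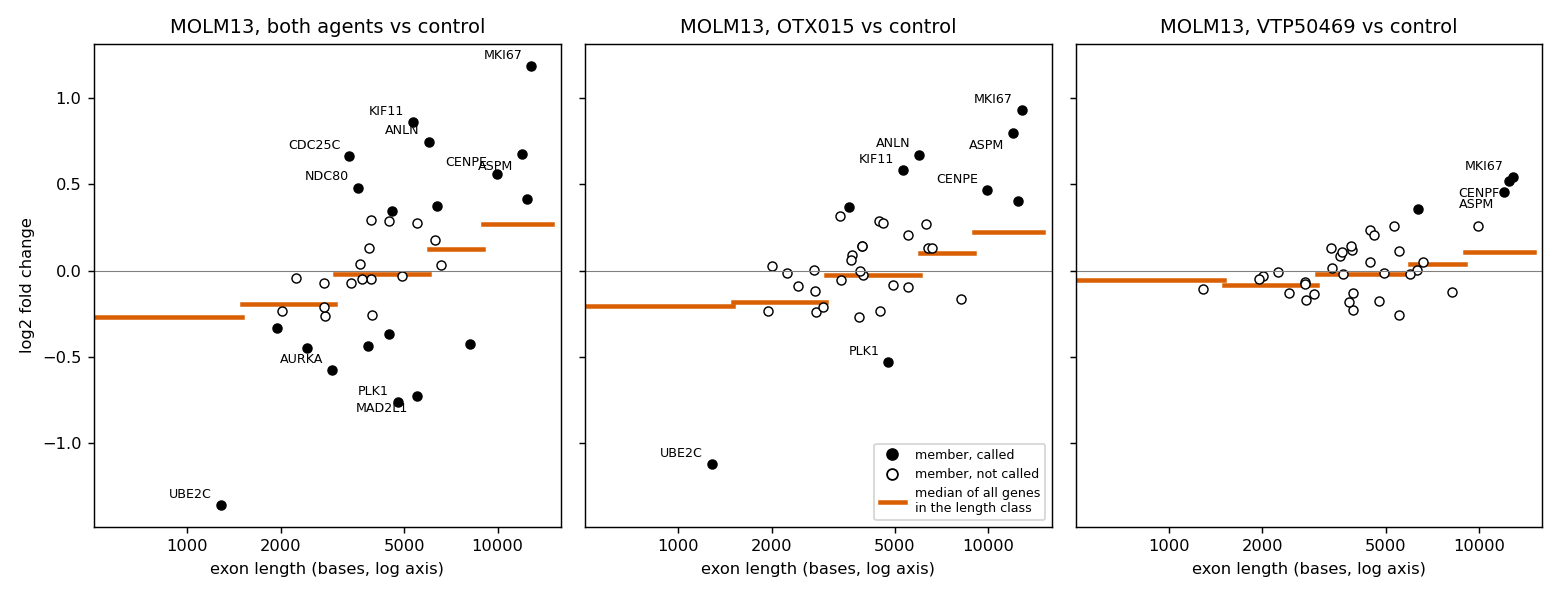
Log2 fold change of each member (circles, filled where called) against its exon length in bases on a log axis, in MOLM13 under both agents, OTX015 and VTP50469, each against control. Orange bars give the median of all tested genes in 5 length classes, which under both agents runs from -0.27 below 1500 bases to 0.27 at 9000 bases or more, the last class being open to the right.

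In MV4-11 cells with 1000 nM VTP50469, MAD2L1, ECT2, BUB1B, BUB3, CCNA2, HMMR and MYBL2 were called lower. Most of these calls were lost when some single library was left out. Of the 36 members 1 rose and 7 fell, where 11.4% of the 15486 tested genes rose and 9.34% fell, and the median log2 fold change was -0.09, against 0.00 over all genes. MAD2L1 had 27.4 and 30.8 CPM in treated cells, against 52.2 and 52.0 CPM in control (-0.84 ± 0.16, n = 2 per group, edgeR adjusted p = 0.00133). ECT2, the exchange factor that turns on RhoA for the cleavage furrow, had 17.0 and 25.8 CPM, against 30.9 and 34.5 CPM (-0.61 ± 0.19). BUB1B had 31.8 and 40.3 CPM, against 58.0 and 49.2 CPM (-0.57 ± 0.17). The 2 groups did not overlap in these genes, although the treated libraries lay far from each other in ECT2. Among the members not called, 12 also lay below control without overlap and 4 above it. BUB3, at 147 and 158 CPM against 224 and 227 CPM (-0.56 ± 0.15), completed a group of 3 checkpoint genes that fell, and the cyclin A2 gene CCNA2 had 52.2 and 64.3 CPM, against 88.1 and 80.6 CPM (-0.53 ± 0.16). HMMR (-0.50 ± 0.16), a spindle assembly factor, and MYBL2, at 171 and 147 CPM against 232 and 213 CPM (-0.48 ± 0.15, edgeR adjusted p = 0.0331), fell too.

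CDC25B, a phosphatase that starts CDK1 activation at the centrosome, was the 1 member that rose in MV4-11. It had 67.7 and 67.3 CPM, against 43.0 and 45 CPM (0.62 ± 0.15, edgeR adjusted p = 0.00832). FOXM1 (-0.33 ± 0.15), CDK1 (-0.44 ± 0.16), CCNB1 (0.02 ± 0.15), MKI67 (-0.02 ± 0.17) and UBE2C (0.14 ± 0.15) were not called. Treated replicate 1 held 0.254% of its counts in the members and treated replicate 2 held 0.290%, against 0.291% and 0.293% in control. The calls rested on few libraries, and leaving 1 out left a group with 1 library, so a call could be lost with little change in size. BUB3 stood at -0.585 without control replicate 1 and at -0.544 without treated replicate 1, whereas ECT2 stood at -0.373 without treated replicate 1. Without control replicate 1 only MAD2L1 and ECT2 were called, both lower, and without treated replicate 1 MYBL2 and MAD2L1 were lower and CDC25B and ASPM higher. MYBL2 and ECT2 (-0.53) lost their calls without control replicate 2, and MYBL2 (-0.38) without treated replicate 2. MAD2L1 fell in each of the 12 alternatives run.

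In OCI-AML3, with 3 libraries per group and the deepest sequencing, VTP50469 at 500 nM left nearly all members within the fold limit. CENPE was called higher and 0 members lower, where 8.58% of the 16611 tested genes rose and 4.53% fell. DESeq2 also called 0 members lower, and 2 were lower at an unadjusted p below 0.05 in edgeR. CENPE had 256, 286 and 290 CPM, against 190, 229 and 242 CPM in control (0.33 ± 0.07, n = 3 per group, edgeR adjusted p = 0.00197). The groups of CENPE did not overlap, and neither did those of 14 members not called that lay above control and 3 that lay below. Control replicate 1 stood below the other controls in CENPE, and without it the log2 fold change was 0.24 and the call was lost. That library also departed from the other controls along exon length, with rho over the members of 0.62 and 0.68 in size. Such a departure was not particular to it. Control replicates 2 and 3 differed at 0.42, and treated replicate 1 from the other treated libraries at 0.47 and 0.61. With the length offset CENPE, one of the longest members, stood at 0.31 and lost its call. The median of the members was 0.04, and 23 of the 36 were above 0. KIF20A, a kinesin of the central spindle, lay just below the fold limit at 0.31 ± 0.03, with 127, 129 and 130.4 CPM against 102, 104 and 105 CPM. TOP2A (0.24 ± 0.03), MKI67 (0.22 ± 0.06) and UBE2C (0.14 ± 0.03) were higher at smaller size, and FOXM1 (-0.02 ± 0.03), MYBL2 (-0.11 ± 0.03), CCNB1 (-0.01 ± 0.02) and CDK1 (0.04 ± 0.03) differed little. CENPE also lost its call without treated replicate 2 or 3 (0.30). Over all genes 65.5% of the calls were higher, against 76.5% without scaling factors. The members held 0.699% to 0.719% of all counts in treated cells, against 0.623% to 0.658% in control.

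Responses to VTP50469 were compared between lines in 1 fit of all 18 libraries. That fit shares 1 spread (a biological coefficient of variation of 6.14%) among lines whose own spreads differed, so its errors are too small for MV4-11 and too large for OCI-AML3: the median SE of the members was 0.112 for the difference between MV4-11 and MOLM13, against 0.159 for the response of MV4-11 alone. On simulated counts with each line's own spread, the fit made many false calls for this difference. An alternative chosen after seeing the data therefore combined the fits of the single lines, each with its own spread, by dividing the difference of the edgeR estimates by its SE, with degrees of freedom from Satterthwaite's formula and adjustment over all genes tested in both lines.

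In the fit of 18 libraries the response of MV4-11 was lower than that of MOLM13 for 13 members and higher for 1, where 10.1% of the 17597 tested genes were lower and 10.5% higher. With each line's own spread 6 members were lower and 1 higher, where 6.91% of 13420 tested genes were lower and 6.55% higher, and these 7 were all called in both fits. They were ECT2 (-0.72 ± 0.21, adjusted p = 0.0223 from the combined edgeR fits), BUB1B (-0.62 ± 0.18), MAD2L1 (-0.58 ± 0.17), CENPF (-0.58 ± 0.17), MKI67 (-0.56 ± 0.17) and KIF11 (-0.54 ± 0.17), all lower, and CDC25B (0.50 ± 0.16, adjusted p = 0.0406 from the combined edgeR fits), which was higher. TTK, CCNA2, ANLN, BUB3, KIF23, NDC80 and TPX2 were called lower only in the fit of 18 libraries. BUB1B and ECT2 fell in MV4-11 and were not called in MOLM13 (0.05 and 0.11). MKI67 and CENPF rose in MOLM13 and stood at -0.02 and -0.06 in MV4-11. Along exon length, Spearman's rho of the difference between lines (18 libraries) was -0.56 over the members and -0.08 over all genes. Of all tested genes of 9000 bases or more, 17.2% were lower and 8.06% higher. With the length offset all 14 calls of that fit held, and the part of length was not tested further. In the fit of 18 libraries FOXM1 (-0.31 ± 0.10), MYBL2 (-0.30 ± 0.10), CDK1 (-0.21 ± 0.11), CCNB1 (0.16 ± 0.08) and UBE2C (0.26 ± 0.09) did not pass. Dose, medium and replicate spread differed between these lines together with the line itself and cannot be told apart. The count of lower members was 7 without MOLM13 control replicate 1 and 8 without MV4-11 control replicate 1.

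The responses of OCI-AML3 and MOLM13, both to 500 nM, were called different for 0 members in either direction, where 2.6% of all tested genes were higher in OCI-AML3 and 1.49% lower. DESeq2 also gave 0, and 6 members passed an unadjusted p below 0.05 in edgeR. With each line's own spread the count was again 0, where 4.93% of all genes were higher and 5.04% lower, but 8 members had an adjusted p below 0.05 and missed the fold limit alone. Largest among them were MKI67 (-0.32 ± 0.07), CENPF (-0.31 ± 0.07), CDK1 (0.27 ± 0.06) and UBE2C (0.25 ± 0.06, adjusted p = 0.000683 from the combined edgeR fits). The count of 0 thus rests on the fold limit, and intervals of 2 SE for these 4 reached past it. In the fit of 18 libraries MYBL2 was at 0.09 ± 0.09, FOXM1 at 0.02 ± 0.08 and CCNB1 at 0.14 ± 0.07.

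**Figure D5:**
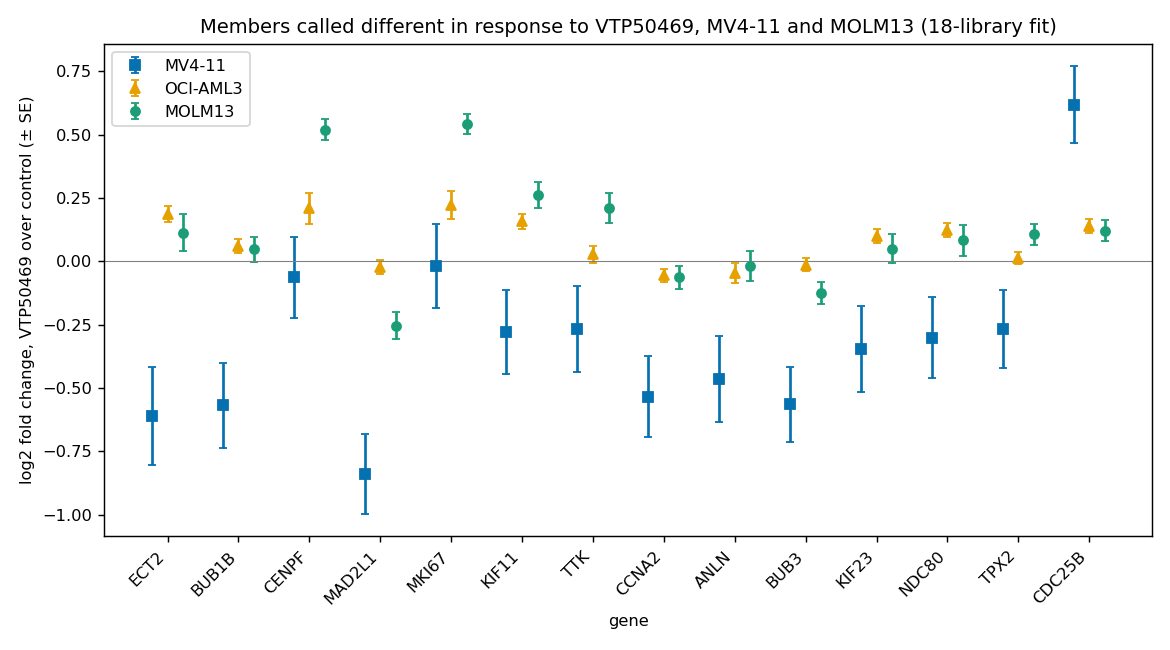
Log2 fold change under VTP50469 over control (± SE) in MV4-11 (squares), OCI-AML3 (triangles) and MOLM13 (circles) for the 14 members called different between MV4-11 and MOLM13 in the fit of 18 libraries, 7 of which kept the call with each line's own spread. Values are from the fit of each line. MAD2L1 is at -0.84 in MV4-11 and -0.02 in OCI-AML3, MKI67 at 0.54 in MOLM13 and -0.02 in MV4-11, and error bars are widest in MV4-11.

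Other genes of the same machinery, in 7 lists of 127 genes that hold none of the 36, moved in both directions as well. Under the combination 38 rose (29.9%) and 26 fell (20.5%), against 31.2% and 30.9% of all tested genes, so neither share was above the background. Under OTX015 38 rose (29.9%) and 12 fell (9.45%), against 23.5% and 24.7% of all genes. Under VTP50469 4 rose (3.15%) and 7 fell (5.51%) in MOLM13, against 8.06% and 5.24%. Condensin subunits, which compact mitotic chromosomes, rose for 4 of 8 under the combination and fell for 0, led by SMC4 (1.14 ± 0.04), and 3 rose under OTX015. APC/C subunits and partners fell for 7 of 17 and rose for 5 under the combination. Among regulators of CDK1 and of G2, CDC25A, the phosphatase that acts from G1 on, fell by 1.24 ± 0.06 under the combination, and CDKN1A, the CDK inhibitor p21, rose by 1.21 ± 0.04 under OTX015. In the list of MuvB, DREAM and E2F genes, E2F5 was lower under the combination (-1.24 ± 0.11). Of 23 S phase genes 3 rose and 5 fell under the combination, among the first CCNE2 (1.24 ± 0.08) and RRM2 (1.18 ± 0.04), the cyclin E2 gene and a subunit of ribonucleotide reductase, and under OTX015 they stood at 1.23 ± 0.08 and 1.46 ± 0.04.

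In MV4-11, 13 of the 127 genes fell (10.2%) and 3 rose (2.36%), where 9.34% of all tested genes fell and 11.4% rose, so the share that fell lay near the background. In the S phase list 6 of 23 genes fell and 0 rose. The kinetochore genes SKA2 (-0.92 ± 0.17) and SKA3 (-0.86 ± 0.17) and the MuvB subunit LIN54 (-0.86 ± 0.20) fell, while PSRC1 (0.94 ± 0.18), a spindle protein, rose. In OCI-AML3 3 of the 127 fell (2.36%), LIN54 (-0.73 ± 0.04), SKA2 (-0.61 ± 0.03) and E2F5 (-0.36 ± 0.05). There 2 rose (1.57%), CDKN1A (0.41 ± 0.03) and the abscission gene CEP55 (0.34 ± 0.03). Both shares lay below those of all tested genes, of which 4.53% fell and 8.58% rose. Where a member overlaps another gene, as CCNA2 with EXOSC9, KIF20A with CDC23 or PLK1 with ERN2, the strand setting of the counting was not given, and reads of the 2 genes could not be told apart.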

How the data were processed

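Total RNA was sequenced in bulk, and the authors deposited whole-number counts for 58037 Ensembl gene IDs, not normalized. The submitters' processing notes name STAR and hg38, the study's methods TopHat2 and Cufflinks2, so the aligner is unsure. The sources used here give neither the counting program nor its strand setting. Members and lists were chosen with earlier results of these data known.

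The test was edgeR's quasi-likelihood F test (glmQLFit and glmQLFTest, edgeR 4.0.16, R 4.3.3) on a model of group means, after filterByExpr and TMM scaling. Each line was fitted apart (8 libraries of MOLM13, 4 of MV4-11, 6 of OCI-AML3), and all 18 together for differences between lines. P-values were adjusted over all tested genes, and a call took an adjusted p below 0.05 and a 1.25-fold change, the study's own fold limit. The SE is the log2 fold change divided by the root of the F statistic. Every replicate pair differed by more than sampling noise (chi-square per degree of freedom 1.46 to 43.9). These SEs rest on the spread between replicates.

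Values per library are given for up to 5 called members of largest rise and of largest fall in a comparison, and FOXM1, MYBL2, CCNB1, CDK1, MKI67 and UBE2C are given in all. From other lists, up to 4 called genes of largest change are named. Sequences follow the 2 largest rises and falls under OTX015 and the combination among members with a RefSeq window. Exon lengths came from GENCODE v44 models on GRCh37, used as lengths only. Alternatives were other scaling, no filter, DESeq2 1.42.0, limma 3.58.1 (voom with quantile normalization), a replicate block, all libraries in 1 fit, each library left out and, added after seeing the data, an offset for exon length and, for differences between lines, the fits of the single lines combined. The way of combining was chosen among 3 on simulated counts, as the one whose p-values kept their level, before it was run on the real counts. On simulated counts with 200 genes changed 2-fold, edgeR recovered 175 in MOLM13 (VTP50469), 151 in MV4-11 and 182 in OCI-AML3.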

Additional observations from a re-analysis of the deposited data

Results flagged for a closer look

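In MOLM13, 3 members responded to both agents together by another amount than the sum of the single responses, by edgeR's test of the interaction: ASPM (-0.58), CENPF (-0.51) and MAD2L1 (-0.38). They were 8.33% of the members, below the 12.7% of all tested genes that were lower, while 11.5% were higher. With all 18 libraries in 1 fit ASPM (adjusted p = 0.22) and MAD2L1 (-0.32) lost the call.

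Between lines, the response to VTP50469 was lower in MV4-11 than in MOLM13 by the same kind of test for ECT2 (-0.72), BUB1B (-0.60), CENPF (-0.57), MAD2L1 (-0.57), MKI67 (-0.55), KIF11 (-0.53), TTK (-0.47), CCNA2 (-0.46), ANLN (-0.44), BUB3 (-0.43), KIF23 (-0.38), NDC80 (-0.37) and TPX2 (-0.36), and higher for CDC25B (0.51). In this fit of 18 libraries 10.1% of all tested genes were lower and 10.5% higher. Adjusted p-values ran from 0.000192 for CDC25B to 0.0458 for ANLN, but the shared spread of that fit is too small for MV4-11. With each line's own spread 7 of the 14 kept the call: ECT2, BUB1B, CENPF, MAD2L1, MKI67, KIF11 and CDC25B. Of all genes tested that way, 6.91% were lower and 6.55% higher. The MV4-11 dose was 1000 nM and the MOLM13 dose 500 nM, so dose and line cannot be told apart.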

How the results depend on the processing

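Over 117 refits of comparisons with a called member, 76 kept all calls of the members, and 0 turned the sign of a call. With each line's own spread MV4-11 minus MOLM13 had 1 higher and 6 lower, against 1 and 13 with a spread shared by all 18 libraries, which is smaller than that of MV4-11. Over all genes it had 879 higher and 927 lower, against 1845 and 1779, and OCI-AML3 minus MOLM13 had 676 and 692, against 458 and 263. Without scaling factors, the combination against OTX015 had 2 higher and 1 lower, MV4-11 had 2 lower and OCI-AML3 had 2 higher. By limma-voom the combination against OTX015 had 3 higher and 1 lower, and OCI-AML3 had 4 higher. Without the filter OCI-AML3 had 2 higher. With all 18 libraries in 1 fit the interaction had 1 lower, MV4-11 11 lower and OCI-AML3 0 higher, and with the length offset OCI-AML3 had 0 higher. The cause of these shifts was not tested. With each library left out in turn, the combination against OTX015 had 0 to 2 higher and 1 to 4 lower, the interaction 3 to 5 lower, MV4-11 0 to 2 higher and 2 to 9 lower, OCI-AML3 0 to 2 higher, and MV4-11 minus MOLM13 1 to 2 higher and 7 to 16 lower. Replicate numbers were not used to pair the samples. Same-numbered deviations correlated at -0.09 to 0.05 in MOLM13, 0.13 in MV4-11 and 0.01 to 0.16 in OCI-AML3, low values that do not settle whether samples were paired. With a replicate block MV4-11 had 1 higher and 9 lower, CDK1 (-0.44) and ANLN among them, and no other member's call changed. The block gave MV4-11 2155 higher and 1874 lower calls over all genes, against 1762 and 1446 without it. Over all genes, VTP50469 in MOLM13 had 1158 higher and 752 lower calls, against 689 and 688 by DESeq2 and 720 and 793 with all 18 libraries. MV4-11 had 1762 and 1446, against 2958 and 2976 with all 18, 950 and 848 without control replicate 1, and 897 and 740 without treated replicate 1. The interaction had 1656 and 1824, against 1579 and 1105 with all 18. OCI-AML3 minus MOLM13 had 300 to 317 higher and 160 to 173 lower without any 1 MOLM13 library. The higher share of calls was 50.8% by limma-voom in OCI-AML3, against 65.5%.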
